A study of Homo sapiens with 6 samples.

Results

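Transcripts of the protein subunits of the mitochondrial ribosome were followed across 6 arrays of a pair of human leukemia cell lines. The genes were all those with a single symbol in the array annotation that starts with MRPL (large subunit) or MRPS (small subunit) and a number. Pseudogene and antisense symbols were left out, which removed MRPL23-AS1, MRPL42P5, MRPL45P2 and MRPS31P5. This gave 76 genes of the 22320 single-symbol genes on the array, 47 with an MRPL and 29 with an MRPS symbol. No measured value entered this rule, but the set was chosen with earlier results of these data known. Of the 76 proteins, 46 have a counterpart in the bacterial ribosome and 30 do not. Each gene's value is the mean of its probe sets, which each cover part of the gene, on the log2 scale. The 76 genes rested on 729 distinct probe sets, with a median of 10 per gene. MRPL12 rested on 1 probe set only, and 16 genes on 5 or fewer. Mean levels ran from 3.71 for MRPS24 to 9.66 for MRPS21, and 71 of the 76 lay at or above the median level of all genes, 5.55.

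Mitochondria keep ribosomes of their own, which translate the few messages of mitochondrial DNA into core subunits of the respiratory chain and of ATP synthase. The ribosomal RNA of these particles is made inside the organelle, whereas their proteins are encoded in the nucleus, made in the cytosol and imported. Many of the proteins descend from those of bacteria, and others were added during the evolution of mitochondria. Acute myeloid leukemia cells are known to depend on mitochondrial translation, and erythroid cells need it for the respiratory chain that supports heme synthesis.

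The arrays came from HEL, an erythroleukemia line, and SET2, a line grown from leukemia cells after a myeloproliferative neoplasm; the labels call both acute myeloid leukemia lines. In each line a lentiviral vector carried an IGF1R shRNA, directed at the receptor of insulin-like growth factor 1, or a miR-125a sponge, a transcript meant to bind that microRNA, or was the pLKO control. All 6 cultures were transduced and then kept in puromycin for 96 h, so the controls carried a lentivirus and the selection too. The study relates the protein AIRAPL to myeloid transformation and IGF-1 signalling. There was 1 array per line and construct, the same control array served both constructs of its line, and the lines are the only replication of a construct.

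IGF1R checked the labels. In HEL it stood at 8.56 with the IGF1R shRNA, 8.81 with the sponge and 8.63 in the control, and in SET2 at 8.33, 8.37 and 8.32. Its level under the shRNA was not detectably lower, so those arrays are called by their label. Blood cell markers matched the labelled lineage in part. PTPRC, CD33 and KIT, which mark leukocytes and progenitors, averaged 8.62 to 9.84 in HEL and 8.62 to 10.11 in SET2, while MPO averaged 4.33 in HEL and 4.51 in SET2. The myeloid factor SPI1 averaged 7.81 in HEL and 6.93 in SET2 (0.87, limma adjusted p = 0.0043). The mean of 5 megakaryocyte markers was 8.96 to 9.21 in HEL arrays and 7.73 to 7.83 in SET2 arrays. The mean of 8 erythroid markers was 7.84 to 8.30 in HEL and 8.57 to 8.75 in SET2. Of these lists 3 of 5 and 5 of 8 genes passed the test between the lines used for the subunits. Over all genes 24.5% passed. Against the direction of their lists, GATA1 (0.21), HBG2 (0.20) and ALAS2 (0.62) were higher in HEL and PF4 (-0.10) was lower. None of these passed. The mean of 5 T and B cell genes was 5.09 to 5.24 in HEL arrays and 4.67 to 4.83 in SET2 arrays. Of these, CD3E, CD3D and MS4A1 averaged 3.83 to 4.48 in HEL and 3.73 to 4.54 in SET2, and CD79A 6.74 in HEL and 6.63 in SET2. CD2 averaged 6.89 in HEL and 4.77 in SET2 and was the 1 gene of the 5 to pass (2.12, limma adjusted p = 0.000259). The mean of 5 fibroblast and epithelial genes was 5.40 to 5.58 in HEL arrays and 5.18 to 5.30 in SET2 arrays. Of the 5, 3 passed, with KRT8 (0.50) and KRT18 (1.37) higher in HEL and EPCAM (-0.57) lower.

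Promoter windows are shown for some of the genes whose level differed between the lines, and for a pair that carries both of the words described here. They come from RefSeq on GRCh38.p14 and run from 50 bases before to 40 bases after the annotated gene start, 5′ to 3′ on the gene's strand. Capitals mark AAGATGGC, the word of the factor YY1, and CCGGAAG, the word of ETS factors such as GABPA, on either strand, so that CTTCCGG is an ETS word on the opposite strand. MRPL16 lies on the minus strand at chr11:59810739-59810828, MRPL20 on the minus strand at chr1:1407254-1407343, and MRPS27 on the minus strand at chr5:72320201-72320290. MRPL45 lies on the plus strand at chr17:38297118-38297207, MRPL40 on the plus strand at chr22:19432495-19432584, and MRPL24 on the minus strand at chr1:156741049-156741138. MRPS10 lies on the minus strand at chr6:42217822-42217911 and MRPS18A on the minus strand at chr6:43687752-43687841.
MRPL16: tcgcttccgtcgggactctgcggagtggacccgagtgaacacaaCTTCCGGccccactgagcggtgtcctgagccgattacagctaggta
MRPL20: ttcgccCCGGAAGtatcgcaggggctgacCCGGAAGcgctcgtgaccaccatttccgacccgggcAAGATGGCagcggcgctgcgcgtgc
MRPS27: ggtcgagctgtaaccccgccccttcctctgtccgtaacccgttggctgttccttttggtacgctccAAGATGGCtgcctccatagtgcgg
MRPL45: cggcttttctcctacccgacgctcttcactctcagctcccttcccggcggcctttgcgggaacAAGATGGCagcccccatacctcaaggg
MRPL40: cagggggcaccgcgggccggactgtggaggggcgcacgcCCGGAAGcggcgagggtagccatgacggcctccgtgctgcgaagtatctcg
MRPL24: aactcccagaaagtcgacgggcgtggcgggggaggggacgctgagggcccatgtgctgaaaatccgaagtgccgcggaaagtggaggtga
MRPS10: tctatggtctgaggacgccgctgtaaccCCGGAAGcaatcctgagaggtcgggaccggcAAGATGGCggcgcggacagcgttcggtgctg
MRPS18A: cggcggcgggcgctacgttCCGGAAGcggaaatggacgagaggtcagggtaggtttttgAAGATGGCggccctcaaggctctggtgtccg
In these windows the YY1 word lies after the gene start and the ETS words of MRPL20, MRPS10 and MRPS18A before it, while MRPL24 holds neither word. Other genes that differed between the lines are not shown. Of those with a promoter, MRPL53, MRPS18B and MRPS33 held a word, and MRPL1, MRPL12, MRPL41, MRPS6 and MRPS17 held neither.

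Over the 300 bases from 250 before to 50 after each start, RefSeq held 84 promoters for 68 of the 76 genes, some of them overlapping. The YY1 word stood in 23 of these 84 promoters (27.4%), against 2.89% of 35116 promoters of all genes and 5.18% of promoters of genes at or above the median level. The ETS word stood in 32 (38.1%), against 10.3% of all promoters and 17.8% of those of the genes at or above the median level. Both words together stood in 11.9% of the mitoribosomal promoters, in 0.555% of all promoters and in 1.28% of those of the genes at or above the median level. At least 1 of them stood in 53.6% of the mitoribosomal promoters, in 12.6% of all promoters and in 21.7% of those of the genes at or above the median level. The words share the letters AAG, so that a match of each can overlap. In the mitoribosomal promoters that held both words, none of these matches overlapped. Overlap was not read in the other promoters.

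Other words of factors tied to mitochondrial genes were less frequent. The NRF1 word GCGCATGC was in 7.14% of the mitoribosomal promoters, 3.05% of all promoters and 4.89% of those of the genes at or above the median level. The E-box CACGTG was in 11.9%, 7.26% and 9.68% of these sets, and the CRE word TGACGTCA in 1.19%, 1.85% and 2.83%. Of the 24 matches to the YY1 word, 18 ran on the gene's own strand and 16 lay after the start, with a median distance of 12.5 bases. In all promoters 64.9% of YY1 matches ran on the gene's strand and 52.6% lay after the start. The 43 ETS matches had a median distance of -23 bases, 20 ran on the gene's strand and 14% lay after the start. In all promoters the ETS matches had a median distance of -46 bases. There 51.2% ran on the gene's strand and 17.4% lay after the start. Promoters of a gene can overlap, so words of MRPL47, MRPS12 and MRPS22 were counted again in each promoter. A match describes letters and not binding.

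**Figure D1:**
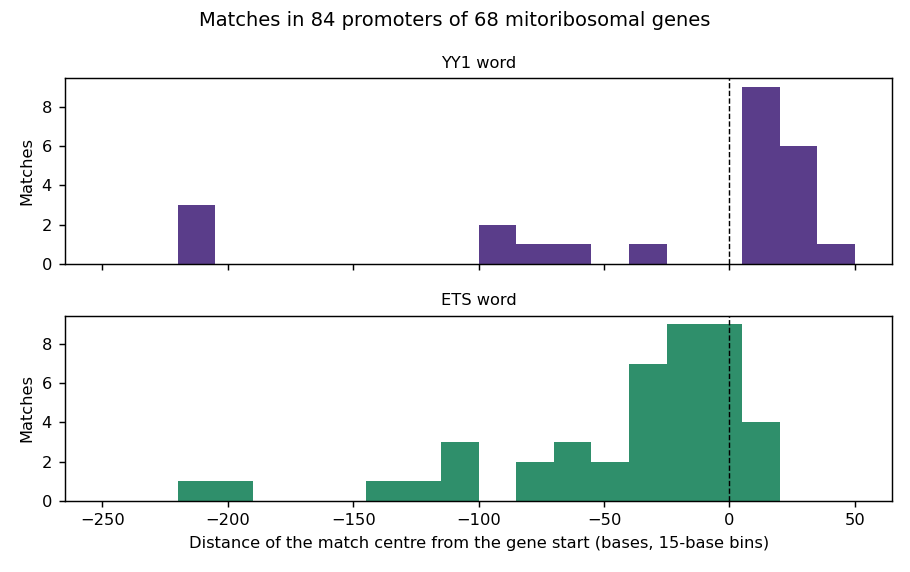
Number of matches (vertical axis) by distance of the match centre from the annotated gene start (horizontal axis, in bases, 15-base bins), for the YY1 word above and the ETS word below, over 84 promoters of 68 mitoribosomal protein genes. The YY1 matches crowd just after the start, with 16 of 24 downstream, and the ETS matches just before it, with a median at -23 bases. Over all promoters, which are not drawn, the median was 0.5 bases for YY1 and -46 bases for ETS. A word in overlapping promoters of a gene counts in each of them.

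HEL was set against SET2 across the 3 constructs to find which subunit genes differ between the lines. The genes split in both directions, with 10 higher and 6 lower in HEL. The greatest fall was that of MRPL16, at 2.08-fold lower in HEL, and the greatest rise that of MRPL24, at 1.85-fold higher. In limma, with construct and line as terms and Benjamini-Hochberg adjustment over all 22320 genes, 16 of 76 (21.1%) passed an adjusted p of 0.05, against 24.5% of all genes. At an unadjusted p of 0.05 there were 26 (34.2%), against 34.8% of all genes. Higher calls made up 13.2% of the 76 and 11.6% of all genes, and lower calls 7.89% and 13% of all genes. The share called was thus close to that of the whole array. The share over the genes at or above the median level, where 71 of the 76 lie, is not given here. Fewer cells of a type and less RNA per cell cannot be told apart in such bulk samples. Some megakaryocyte, erythroid and epithelial markers, SPI1 and CD2 differed between the lines too, in the directions given above. Their part in the differences of the subunit genes was not tested.

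The count of calls depended on a few choices. The share of all genes called under each choice is not given here. The counts therefore do not set these genes apart from the rest of the array. It was 6 with the median of the probe sets in place of the mean and 8 with the brightest probe set alone. It was 4 without either control array, 6 without either sponge array and 19 without either array labelled IGF1R shRNA. Leaving out the HEL or the SET2 array of a construct gives the same estimate here, since the array left behind then only sets its own construct's term. MRPL16, MRPL24, MRPS27 and MRPS17 passed in each of the 6 fits that left out an array, with adjusted p up to 0.0408. With the median of the probe sets, MRPL10, MRPL16, MRPL40 and MRPS27 of the 16 still passed, and with the brightest probe set also MRPL24 and MRPS17. MRPL16 and MRPS27 thus passed in every alternative run, and MRPS33 and MRPS6 in 4 of the 6 fits that left out an array. MRPL1, MRPL10, MRPL15, MRPL20, MRPL40, MRPL41, MRPL45, MRPL53 and MRPS18B passed in 2 of those 6, both without an array labelled IGF1R shRNA, and MRPL12 in none.

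**Figure D2:**
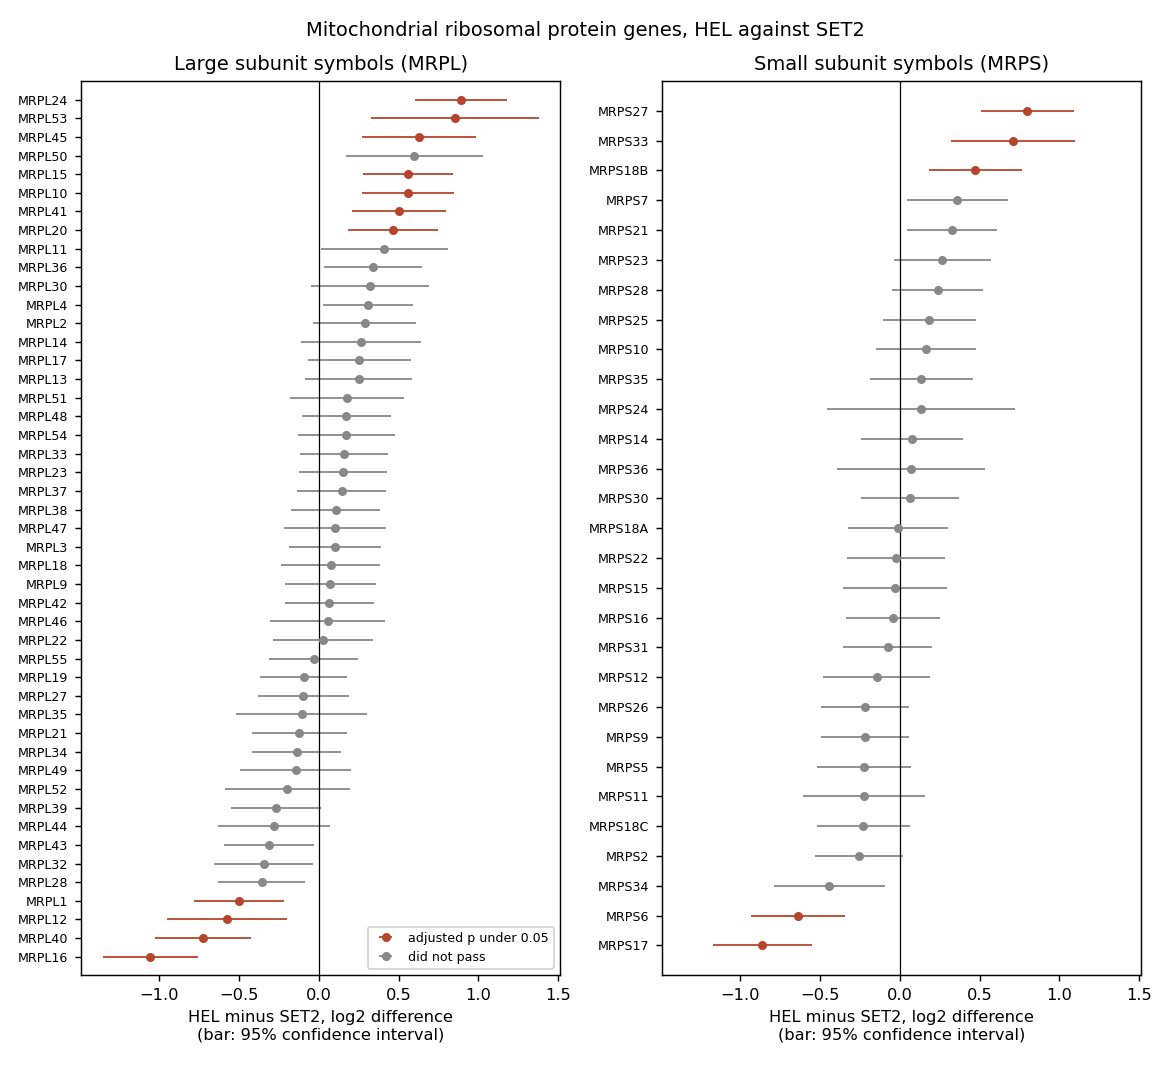
Fitted log2 difference HEL minus SET2 (horizontal axis) of the 47 MRPL genes on the left and the 29 MRPS genes on the right, with 95% confidence intervals over 6 arrays. Coloured points are the 16 genes past an adjusted p of 0.05; the other 60 lie between -0.44 for MRPS34 and 0.60 for MRPL50.

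Among large subunit proteins with a bacterial counterpart, MRPL16 stood furthest apart. The bacterial protein L16 helps to shape the sites that hold transfer RNA. In HEL, MRPL16 was at 7.73 with the IGF1R shRNA, 8.06 with the sponge and 8.09 in the control, and in SET2 at 8.97, 9.04 and 9.04. Every HEL array lay below every SET2 array. The difference was -1.06 (SE 0.12, limma adjusted p = 0.00143), and 10 of its 11 probe sets had no overlap between the lines. MRPL24 went the other way; its bacterial counterpart starts the assembly of the large subunit. It was at 7.82, 7.54 and 7.69 in HEL and at 6.79, 6.74 and 6.85 in SET2 with the shRNA, the sponge and the control. The lines did not overlap, and the difference was 0.89 (SE 0.12, adjusted p = 0.00256), with 9 of 13 probe sets higher in all HEL arrays.

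In the stalk that draws translation factors to the ribosome, MRPL10 was higher in HEL, while the lower value of MRPL12 was not steady. MRPL10, which anchors the stalk, averaged 7.02 ± 0.08 in HEL and 6.46 ± 0.19 in SET2 (SD, n = 3 arrays each), a difference of 0.56 (SE 0.12, adjusted p = 0.0169). MRPL12, the repeated stalk protein that is also reported to bind the mitochondrial RNA polymerase, was at 6.37, 6.57 and 6.85 in HEL and at 7.31, 6.81 and 7.39 in SET2 with the shRNA, the sponge and the control. Its lines overlapped, since the sponge array of SET2 lay below the control array of HEL. The difference of -0.57 (SE 0.16, adjusted p = 0.0400) rests on a single probe set. With 6 further probe sets that the annotation shares with other genes, it was -0.02 (adjusted p = 0.931), and no fit that left out an array called it. MRPL11, at the base of the stalk, averaged 6.84 ± 0.22 in HEL and 6.43 ± 0.24 in SET2 and did not pass (0.41, adjusted p = 0.132).

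A further 3 large subunit genes with bacterial counterparts passed. MRPL15 averaged 8.34 ± 0.05 in HEL and 7.79 ± 0.08 in SET2, a difference of 0.56 (SE 0.12, adjusted p = 0.0153). MRPL20, whose bacterial counterpart is needed to assemble the large subunit, averaged 8.21 ± 0.17 in HEL and 7.74 ± 0.09 in SET2 (0.47, SE 0.12, adjusted p = 0.0308), and was at 0.29 with the median of its probe sets (adjusted p = 0.311). MRPL1, of the mobile stalk beside which spent transfer RNA leaves, was lower in HEL, at 6.11 ± 0.08 against 6.61 ± 0.05 in SET2 (-0.50, SE 0.12, adjusted p = 0.0240). Arrays of the lines did not overlap in any of the 3 (SD, n = 3 arrays each).

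Of large subunit proteins found only in mitochondria, 4 passed. MRPL45, which lies at the exit tunnel and ties the ribosome to the inner membrane, was at 9.79, 9.89 and 9.88 in HEL and at 8.80, 9.45 and 9.43 in SET2 with the shRNA, the sponge and the control. All 5 of its probe sets were higher in all HEL arrays, and the gene differed by 0.63 (SE 0.15, adjusted p = 0.0241). The SET2 array labelled IGF1R shRNA was the lowest of the 6. MRPL40, whose gene lies in the region deleted in DiGeorge syndrome, was at 5.94, 5.65 and 5.88 in HEL and at 6.50, 6.37 and 6.78 in SET2. It was lower in HEL (-0.73, SE 0.13, adjusted p = 0.00696), with no overlap in 7 of 8 probe sets. MRPL41, also described as a partner of the survival protein BCL2, averaged 6.03 ± 0.08 in HEL and 5.53 ± 0.18 in SET2 (0.50, SE 0.12, adjusted p = 0.0262). With the median of its probe sets it was at 0.053 (adjusted p = 0.898) and was not called.

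MRPL53 was the least steady of these. Its levels were 5.27, 6.08 and 6.20 in HEL with the shRNA, the sponge and the control, and 5.12, 4.92 and 4.97 in SET2. The HEL array labelled IGF1R shRNA lay close to SET2, and the other HEL arrays well above every SET2 array. The difference was 0.85 (SE 0.22, adjusted p = 0.0323) on 2 probe sets, and 0.37 (adjusted p = 0.0774) with 5 shared probe sets added. With the brightest probe set it was 0.19 (adjusted p = 0.654). MRPL50 was at 0.60 (SE 0.18, adjusted p = 0.0537) and did not pass, although every HEL array lay above every SET2 array.

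In the small subunit 3 genes were higher and 2 lower in HEL. MRPS27, which carries RNA-binding pentatricopeptide repeats, was at 6.64, 7.31 and 7.07 in HEL and at 5.995, 6.49 and 6.13 in SET2 with the shRNA, the sponge and the control. The lines did not overlap, and within each line the sponge array was the highest. The line difference was 0.80 (SE 0.12, adjusted p = 0.00427), and 10 of 22 probe sets were higher in all HEL arrays. MRPS33, found only in mitochondria, averaged 6.16 ± 0.16 in HEL and 5.45 ± 0.30 in SET2 (0.71, SE 0.16, adjusted p = 0.0210).

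MRPS17 and MRPS6 were lower in HEL; their bacterial counterparts bind ribosomal RNA during assembly of the small subunit. MRPS17 was at 5.24, 4.89 and 5.15 in HEL and at 6.11, 5.95 and 5.81 in SET2 with the shRNA, the sponge and the control. It differed by -0.86 (SE 0.13, adjusted p = 0.00403), with 3 of 5 probe sets lower in all HEL arrays. MRPS6 averaged 6.84 ± 0.05 in HEL and 7.48 ± 0.11 in SET2 (-0.64, SE 0.12, adjusted p = 0.0111). Neither gene's arrays overlapped between the lines.

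**Figure D3:**
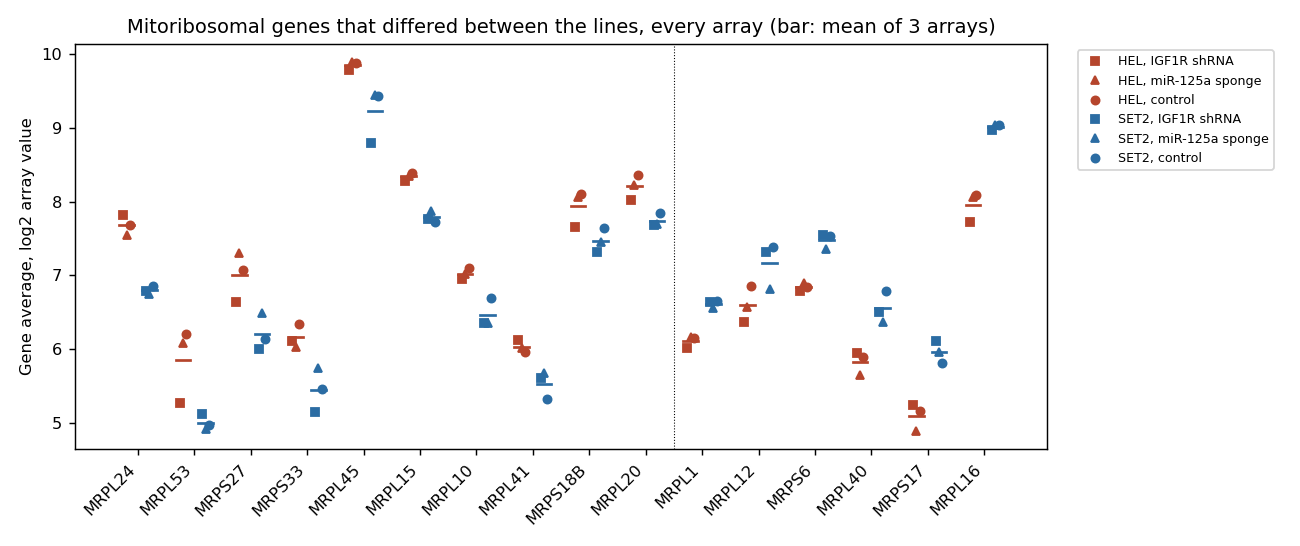
Gene averages on the log2 scale (vertical axis) in each of the 6 arrays for the 16 genes that differed between the lines, HEL in red left of SET2 in blue; squares are IGF1R shRNA, triangles sponge and circles control, and bars are means of 3 arrays. In all but MRPL12 the red and blue symbols do not overlap; the dotted line parts genes higher in HEL from those lower.

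Of the 3 human counterparts of bacterial S18, MRPS18B passed. It averaged 7.94 ± 0.25 in HEL and 7.47 ± 0.17 in SET2 (0.47, SE 0.12, adjusted p = 0.0317), and did not pass in the fit without construct as a replicate block (adjusted p = 0.0532). It passed in 4 of 8 alternatives that kept all 6 arrays, with limma adjusted p up to 0.339. Of its 11 distinct probe sets, 3 were higher in all HEL arrays. MRPS18A averaged 8.09 ± 0.21 in HEL and 8.09 ± 0.09 in SET2 (-0.01, 95% confidence interval -0.32 to 0.30). MRPS18C averaged 6.32 ± 0.09 in HEL and 6.55 ± 0.21 in SET2 (-0.23, adjusted p = 0.244). The annotation listed MRPS18B 77 times over 11 distinct probe sets, each 7 times, which leaves the average unchanged. MRPS18A has since been placed in the large subunit.

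A few other genes of known role did not pass. MRPS12, of the decoding centre, averaged 6.86 ± 0.16 in HEL and 7.01 ± 0.23 in SET2 (-0.15, adjusted p = 0.540). MRPS30, now also placed in the large subunit, averaged 8.49 ± 0.03 and 8.43 ± 0.17 in HEL and SET2 (0.06, adjusted p = 0.789). MRPS36, named KGD4 in RefSeq and since described as part of the 2-oxoglutarate dehydrogenase complex, averaged 5.60 ± 0.22 in HEL and 5.53 ± 0.28 in SET2 (0.07, adjusted p = 0.850). MRPS28 averaged 5.82 ± 0.41 in HEL and 5.58 ± 0.32 in SET2 (0.24, adjusted p = 0.217). The intervals of these genes are wide enough to hold differences of 0.3 or more, so a missed threshold does not show equal levels.

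Across all 76, the arrays of the lines did not overlap in 32 genes (42.1%), against 39.2% of all genes. HEL lay wholly above SET2 in 19 (25%, against 19.2%) and wholly below in 13 (17.1%, against 20% of all genes). Besides 15 of the 16 called genes, 17 genes without overlap did not pass, among them MRPS7 (0.36), MRPS21 (0.33), MRPL28 (-0.36) and MRPL32 (-0.34). By symbol, 11 of 47 MRPL genes (23.4%) and 5 of 29 MRPS genes (17.2%) were called. Genes with a bacterial counterpart were called in 10 of 46 cases (21.7%) and those without in 6 of 30 (20%).

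Large differences were less common among the 76 than on the array as a whole. Typical ones were of like size to those of all genes, and smaller than those of the genes at or above the median level. The lower and upper quartiles of the 76 fitted differences were -0.16 and 0.27, against -0.21 and 0.21 over all genes and -0.37 and 0.32 over the genes at or above the median level. Their median size was 0.22, against 0.21 over all genes and 0.34 over the genes at or above the median level. The SD of the 76 fitted differences was 0.37, against 0.64 over all genes and 0.78 over the 11160 genes at or above the median level. MRPL16 alone passed a 2-fold difference (1.32% of the 76), while 8.17% of all genes and 11.8% of the genes at or above the median level did. The median of the 76 was 0.07, and that of all genes 0.008. Taken by construct, the median of HEL minus SET2 was 0.19 in arrays labelled IGF1R shRNA, 0.006 in sponge arrays and -0.02 in controls. It was -0.016 in the fit without either array labelled IGF1R shRNA.

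Each gene was also set beside its chromosomal neighbours, the 10 measured genes on either side in RefSeq's order. The median HEL minus SET2 difference of the neighbours ran from -0.26 to 0.29 over the 76 genes, which lie on 21 chromosomes. Across the 76, the gene's difference and its neighbours' median had a Pearson correlation of 0.46 and a Spearman correlation of 0.48. These are descriptions across genes, which share the arrays and in places the neighbours. No such correlation or count was computed for other genes of the array. Whether the agreement is particular to the 76 was therefore not tested. Of the 16 called genes, 11 had the sign of their neighbours, as had 51 of all 76. With 20 genes on either side these counts were 14 and 54. MRPL40 at -0.73 stood among neighbours with a median of -0.24, and MRPS17 at -0.86 among neighbours at -0.18. MRPL16 at -1.06 stood among neighbours at 0.04. MRPL1, MRPL20, MRPL41 and MRPS18B also went against their neighbours' median.

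**Figure D4:**
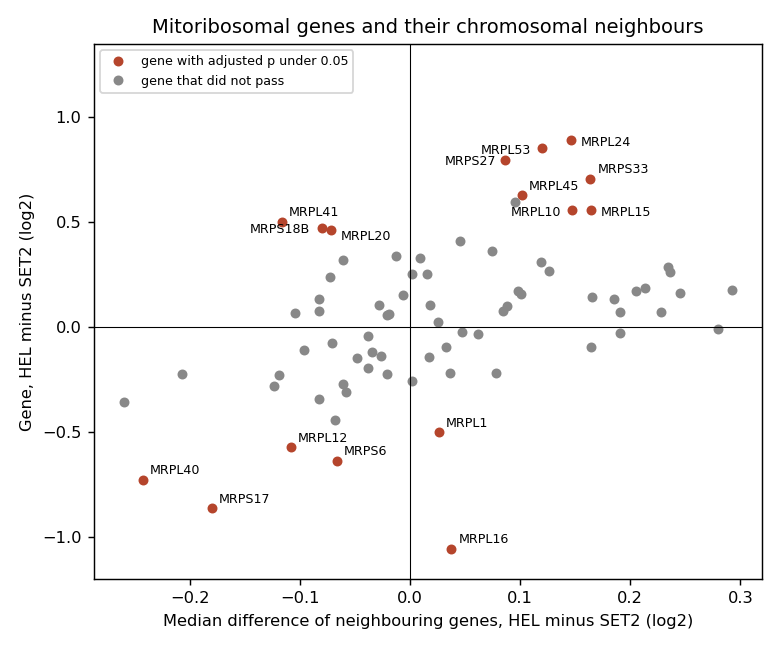
Fitted HEL minus SET2 difference of each of the 76 genes (vertical axis, log2) against the median difference of the 10 measured genes on each side of it (horizontal axis, log2); coloured points are genes past an adjusted p of 0.05. Points run from lower left to upper right with r of 0.46, and MRPL16 is the lowest point, at a neighbour median near zero. The same value was not computed for other genes of the array.

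To find subunit genes that differ where the shRNA was introduced, arrays with the IGF1R shRNA label were compared with controls. No gene passed in limma, neither among the 76 nor among all 22320 genes (0%), and at an unadjusted p of 0.05 there were 4 of the 76 (5.26%) and 7.42% of all genes. The 4 were MRPS23, MRPS18B, MRPL27 and MRPL39, each lower with the shRNA. In direction, 39 of the 76 (51.3%) were lower in both lines, against 27% of all genes and 31.7% of the genes at or above the median level. A higher value in both lines was seen in 4 genes (5.26%), against 22.5% of all genes and 18.3% of those at or above the median level. With limma's trend option no gene passed either.

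More genes had a lower value in SET2 than in HEL. In SET2 66 of 76 genes (86.8%) had a lower value with the shRNA than in the control, against 54.6% of all genes and 62.8% of those at or above the median level. In HEL 45 (59.2%) did, against 49.5% of all genes and 50.4% at or above the median level, and 31 (40.8%) had a higher value, against 50.1%. In SET2 9 (11.8%) had a higher value, against 45% of all genes and 36.9% of those at or above the median level. The median difference of the 76 was -0.24 in SET2 and -0.07 in HEL, and -0.15 over both lines (all genes, -0.01). Over the genes at or above the median level it was -0.09 in SET2, -0.006 in HEL and -0.04 over both lines. The median of the 76 over both lines was -0.13 with the arrays centred on their medians. Each of these within-line values sets 1 array against 1 array and has no replicate check. Over all 729 distinct probe sets of the 76 genes, 69.4% were lower with the shRNA in SET2 and 55.6% in HEL, and no such share was computed over the other probe sets of the array.

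MRPS23, a small subunit protein, had the greatest difference of those with equal signs. It was at 7.77 with the shRNA and 8.56 in the control in HEL, and at 7.60 and 8.09 in SET2. Both lines thus lay lower with the shRNA, with a difference of -0.79 in HEL and -0.49 in SET2. Fitted over both lines, the value was -0.64 (SE 0.16, adjusted p = 0.588, with a 95% confidence interval of -1.01 to -0.27). Of its 7 probe sets, 6 were lower in HEL and 7 in SET2.

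MRPL39 was at 7.50 with the shRNA and 7.85 in the control in HEL, and at 7.71 and 8.06 in SET2, a difference of -0.35 (adjusted p = 0.672). The log2 difference from control was -0.45 in HEL and -0.33 in SET2 for MRPS18B, -0.32 and -0.39 for MRPL27, and -0.30 and -0.31 for MRPS34. The 4 genes higher in both lines had smaller values. The difference was 0.16 in HEL and 0.28 in SET2 for MRPL41, 0.09 and 0.30 for MRPS17, 0.06 and 0.14 for MRPL42, and 0.01 and 0.22 for MRPS21. MRPL42 turned to -0.55 with the median of its probe sets.

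Some genes had a large value in a single line. For MRPL53 the difference from control was -0.93 in HEL and 0.14 in SET2. For MRPS24, the dimmest of the 76, it was 0.93 in HEL and -0.23 in SET2. Both passed in the limma fit without the SET2 array labelled IGF1R shRNA, which called 729 of all 22320 genes, with MRPL53 at -0.92 (adjusted p = 0.0381) and MRPS24 at 0.95 (adjusted p = 0.0347). In that fit 1 HEL array stands for the shRNA, so these calls restate the HEL values. MRPL45 was at -0.09 in HEL and -0.63 in SET2 from control. Whether these values differ between the lines was not tested.

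**Figure D5:**
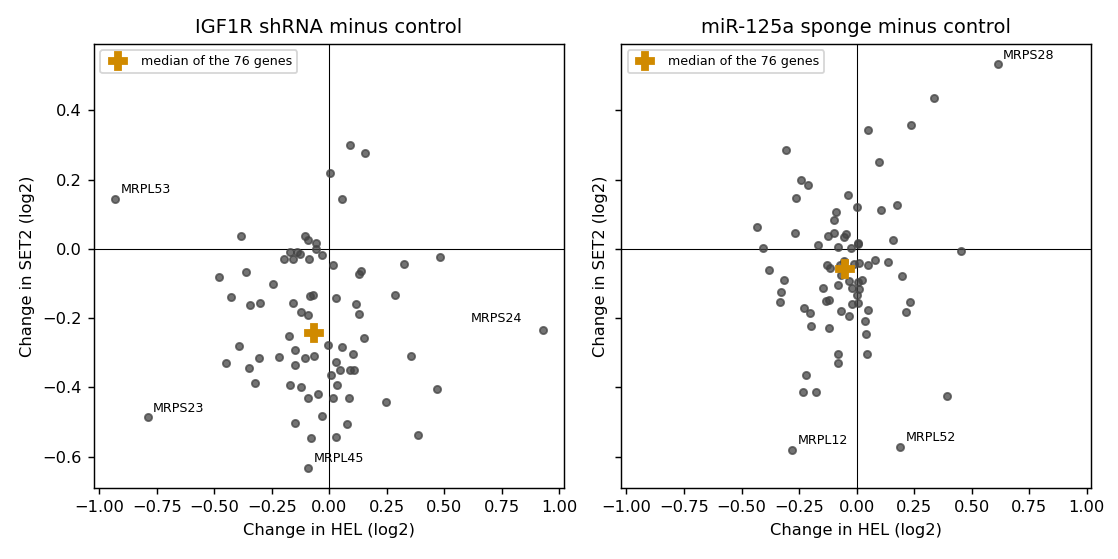
Difference from control in HEL (horizontal axis, log2) and in SET2 (vertical axis, log2) of the 76 genes, for IGF1R shRNA on the left and miR-125a sponge on the right; both panels use the same control arrays. With the shRNA 66 of 76 points lie below zero in SET2 and the median (gold cross) is at -0.07 in HEL and -0.24 in SET2; with the sponge the cloud lies around a median close to zero in both lines.

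The sponge was set against the same control arrays, to find subunit genes that differ where miR-125a was to be bound. No gene passed among the 76 or among all genes in limma (0%), with or without its trend option. At an unadjusted p of 0.05 there was 1 of the 76 (1.32%) and 1.85% of all genes. In both lines 29 genes (38.2%) were lower with the sponge, against 29.6% of all genes and 32.5% of those at or above the median level, and 11 (14.5%) were higher, against 21% and 20%. Within HEL 46 (60.5%) had a lower and 29 (38.2%) a higher value, against 51.3% and 48.3% of all genes, and 48.8% and 50.9% of those at or above the median level. Within SET2 48 (63.2%) had a lower and 28 (36.8%) a higher value, against 56.8% and 42.7% of all genes. These shares were close to the 63.4% and 36.3% of genes at or above the median level, where 71 of the 76 lie. The median difference was -0.06 over the lines, at -0.05 in HEL and -0.06 in SET2, with -0.02 over all genes.

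MRPS28 had the greatest upward value. It was at 6.28 with the sponge and 5.67 in the control in HEL, and at 5.95 and 5.42 in SET2. Over both lines the difference was 0.57 (SE 0.15, adjusted p = 1, with a 95% confidence interval of 0.23 to 0.92). Of its 3 probe sets, the dimmest, with a mean of 3.26, had differences of 1.74 in HEL and 1.63 in SET2. The other probe sets had -0.15 and 0.25 in HEL, and 0.38 and -0.41 in SET2. The gene's difference was 0.33 with 7 shared probe sets added and -0.08 with the brightest probe set alone.

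Sponge minus control was 0.34 in HEL and 0.44 in SET2 for MRPS24, 0.24 and 0.36 for MRPS27, 0.18 and 0.13 for MRPL32, and 0.11 in both for MRPL19. For MRPS24 the value over both lines was 0.39 on 3 dim probe sets, 0.01 with 4 brighter shared probe sets added and 0.047 to 0.73 with an array left out. For MRPS27 it was 0.30, and 0.02 without dim probe sets. MRPL32 is a protein that the inner membrane protease trims before it can join the ribosome; its value and that of MRPL19 turned negative with the brightest probe set. On the lower side MRPL12 was at 6.57 with the sponge and 6.85 in the control in HEL, and at 6.81 and 7.39 in SET2, a difference of -0.43 on its 1 probe set. It was -0.15 with 6 shared probe sets added and -0.68 to -0.18 with an array left out. The values were -0.23 in HEL and -0.41 in SET2 for MRPL40, -0.22 and -0.36 for MRPS12, -0.20 and -0.22 for MRPL36, and -0.20 and -0.18 for MRPL28. None of these passed the test.

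Sponge and IGF1R shRNA arrays were also set against each other. No gene passed in limma, with or without trend (0% of all genes), and 3 of the 76 (3.95%) had an unadjusted p under 0.05, against 6.85% of all genes. The 3 were MRPS28, MRPS27 and MRPS23. MRPS27 was at 7.31 with the sponge and 6.64 with the shRNA in HEL, and at 6.49 and 5.995 in SET2. It was higher with the sponge in both lines, and the fitted value was 0.58 (SE 0.15, adjusted p = 0.725, with a 95% confidence interval of 0.22 to 0.94), and 0.27 without dim probe sets. MRPS23 was at 0.42 (SE 0.16, adjusted p = 0.725), at 8.18 with the sponge and 7.77 with the shRNA in HEL and at 8.03 and 7.60 in SET2. MRPS28 was at 0.67 (SE 0.15, adjusted p = 0.725), and at 0.22 with the brightest probe set.

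In this comparison 30 of the 76 genes (39.5%) were higher with the sponge in both lines, against 25.1% of all genes and 29.1% of those at or above the median level, and 8 (10.5%) were lower, against 26.1% and 22.4%. Within HEL 42 (55.3%) had a higher and 34 (44.7%) a lower value with the sponge, against 47.6% and 52% of all genes, and 50.3% and 49.5% of those at or above the median level. Within SET2 56 (73.7%) had a higher and 20 (26.3%) a lower value, against 51% and 48.6% of all genes, and 56.1% and 43.6% of those at or above the median level. The median difference was 0.07, at 0.02 in HEL and 0.15 in SET2. Over the genes at or above the median level it was 0.02, at 0.0025 in HEL and 0.04 in SET2. Sponge minus shRNA was 0.20 in HEL and 0.39 in SET2 for MRPL49, and 0.18 and 0.36 for MRPL39. On the lower side it was -0.24 in HEL and -0.18 in SET2 for MRPL43, -0.27 and -0.16 for MRPL13, and -0.35 and -0.15 for MRPS17. For MRPL40 it was -0.29 and -0.13, and for MRPS21 -0.06 and -0.18. The 3 comparisons of constructs share arrays, so their counts are not independent of each other.

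Proteins of the mitochondrial ribosome that carry other symbols were read from the same fit. Of 6 measured, 1 was higher and 1 lower in HEL (33.3% called, against 24.5% of all genes). MRP63, now MRPL57, averaged 8.16 ± 0.10 in HEL and 7.73 ± 0.07 in SET2 (0.43, adjusted p = 0.0358). GADD45GIP1, a large subunit protein also known as CRIF1, was at 6.92, 6.78 and 7.21 in HEL and at 8.06, 7.84 and 7.76 in SET2 with the shRNA, the sponge and the control (-0.91, SE 0.15, adjusted p = 0.00581). DAP3, a GTP-binding protein of the small subunit, was at 0.09 (adjusted p = 0.695). ICT1, now MRPL58 and able to release stalled ribosomes, was at -0.92 in HEL and -0.24 in SET2 from control with the shRNA and did not pass.

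Of 26 genes that assemble the mitochondrial ribosome or modify its RNA, 4 were higher and 6 lower in HEL (38.5% called, against 24.5% of all genes). YBEY, whose bacterial counterpart trims ribosomal RNA, was at 6.97, 5.89 and 6.19 in HEL and at 8.18, 7.76 and 7.91 in SET2 with the shRNA, the sponge and the control (-1.60, SE 0.16, adjusted p = 0.000637). RPUSD4 and TRUB2, enzymes that make pseudouridine in mitochondrial RNA, went opposite ways, RPUSD4 at 1.01 (adjusted p = 0.00328) and TRUB2 at -0.86 (adjusted p = 0.0030). FASTKD2, which binds the large ribosomal RNA, was lower at -0.78 (adjusted p = 0.00731).

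Among 17 translation factors, GUF1 (0.65, adjusted p = 0.00988) and MTIF2, the initiation factor (0.46, adjusted p = 0.0496), were higher in HEL and none was lower (11.8% called, against 24.5% of all genes). Of 17 genes for mitochondrial DNA and RNA, 2 were higher and 2 lower (23.5%), with the RNA polymerase POLRMT at 0.72 (adjusted p = 0.0112) and the RNA helicase SUPV3L1 at -0.66 (adjusted p = 0.00703). Of 11 regulators of mitochondrial biogenesis, PPARGC1B (0.87, adjusted p = 0.00255) and PPRC1 were higher and CREB1 lower (27.3%). YY1 and GABPA, factors whose words were searched in the promoters, were at -0.27 (adjusted p = 0.198) and -0.32 (adjusted p = 0.114) and did not pass. Of 11 mitochondrial proteases and chaperones, 4 were higher and 1 lower (45.5%, against 24.5% of all genes), with CLPP, a protease that acts on ribosome assembly in mouse, at 0.91 (adjusted p = 0.00289). No gene of these 6 lists passed in a comparison of constructs.

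Calls between the lines were also counted by promoter word. With the YY1 word 4 of 21 genes were called between the lines, and without it 10 of 47. With the ETS word 5 of 29 were called, and without it 9 of 39. Over all genes 24.5% were called, and no such split by word was made for them. The median IGF1R shRNA minus control difference was -0.17 in genes with the YY1 word and -0.14 in those without, and -0.21 and -0.10 for the ETS word. These values were not tested.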

How the data were processed

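Total RNA was hybridised to 6 GeneChip Human Gene 2.0 ST arrays, 1 per line and construct. The authors deposited log2 probe set values, and, per the submitters' processing notes, the software was Affymetrix Expression Console. How they were summarised and normalised, and the genome build, are not given in the sources used here. Their scale was read from the values (1.61 to 13.99; array medians 5.69 to 5.75). Present calls were not used here.

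Of 352859 probe sets, the 259224 with a single symbol were averaged per symbol into 22320 genes; 13116 with several symbols and 80519 with none were left out. limma 3.58.1 (R 4.3.3; lmFit, eBayes) fitted construct plus cell line to all 6 arrays, with 2 residual and 4.78 prior degrees of freedom, two-sided p-values and Benjamini-Hochberg adjustment over all genes. Cell line, as labelled, pairs the arrays and is the replicate block; same-line deviations from construct means correlated at 0.75 to 0.88. Nothing states that cultures were repeated, so p-values measure only the spread between these arrays, whose number limits precision.

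The genes and lists were chosen with earlier results of these data known. Named genes were the called genes with equal sign under every construct (up to 12 a direction), in comparisons of constructs the 5 in each direction with the greatest smaller change of the lines, the dimmest and brightest, and MRPL10, MRPL11, MRPL12, MRPS12, MRPS18A, MRPS18B, MRPS18C, MRPS28, MRPS30, MRPS36, DAP3 and IGF1R. MRPL45, MRPL53 and MRPS24 under the shRNA, MRPL50, MRPS7 and the named genes of the lists were chosen after their values were seen. Alternatives changed the probe set summary, dim values, centring, eBayes trend, arrays and block; adding probe sets shared with other genes was chosen after seeing the data. Promoters and neighbours came from RefSeq tables of GRCh38.p14. The fit was tested on simulated data. Tables and plots used pandas 2.3.3 and matplotlib 3.10.9 under Python 3.11.15.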

Additional observations from a re-analysis of the deposited data

Results flagged for a closer look

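Some named genes had values of opposite sign in the lines when a construct was compared with control. The difference between the lines was not tested in any of them, since each line has 1 array per construct. With the IGF1R shRNA, MRPS36 was at 0.38 in HEL and -0.54 in SET2, which sets HEL 0.92 above SET2. MRPS12 was at 0.08 in HEL and -0.43 in SET2, a gap of 0.515. MRPS18A was at -0.39 in HEL and 0.04 in SET2, a gap of -0.42. DAP3 was at 0.16 in HEL and -0.21 in SET2, a gap of 0.37. With the sponge, MRPS36 again had opposite signs, at 0.39 in HEL and -0.43 in SET2, a gap of 0.82; both gaps of MRPS36 rest on the same control arrays, 5.34 in HEL and 5.85 in SET2. MRPL11 was at -0.41 in HEL and 0.004 in SET2, a gap of -0.41, and MRPS30 at -0.05 in HEL and 0.04 in SET2, a gap of -0.092.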

How the results depend on the processing

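Without a replicate block, 16 genes were called between the lines (construct left out of the fit; 15 of them shared, with MRPS18B lost) and 0 in each comparison of constructs (cell line left out). Calls between the lines numbered 6 when probe sets were summarised by their median, 8 by the brightest alone, and 4 to 19 when an array was left out; of the 16 called genes MRPL12 was lost in each of those 6 fits. Their median difference ran from -0.016 to 0.113, with the sign turned without either array labelled IGF1R shRNA. Calls with the IGF1R shRNA were 0 to 2 and their median -0.248 to -0.069. The median sponge minus control difference was -0.075 with the median of the probe sets, -0.0975 with the brightest, -0.073 without dim probe sets, -0.050 with centred arrays, -0.046 with shared probe sets and -0.098 to -0.014 with an array left out; sponge against shRNA ran from 0.0016 to 0.173. For the calls between the lines, the share of all genes called in each of these fits is not given. The causes were not tested.

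Signs of some values that had not passed turned. With the IGF1R shRNA MRPL42 was -0.55 (median of the probe sets), -0.035 (brightest) and -0.020 (no dim probe sets). With the sponge and the brightest probe set MRPS28 was -0.080, MRPL32 -0.075 and MRPL19 -0.010, and MRPL32 was -0.046 without dim probe sets. In sponge against shRNA MRPL13 was 0.080 (brightest), MRPL40 0.050 (no dim probe sets) and MRPS21 0.0225 (median of the probe sets). In HEL against SET2 MRPS18A was 0.24 (median of the probe sets), 0.0028 (no dim probe sets) and 0.030 (shared probe sets), and -0.114 to 0.098 with an array left out. Ranges with an array left out also crossed zero for MRPS30 (-0.042 to 0.14), MRPS36 (-0.101 to 0.361) and DAP3 (-0.017 to 0.167). Where a construct kept 1 array, it was assumed to vary like the others.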

Other observations

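Of the 4 symbols left out of the 76, the pseudogene symbol MRPL42P5 had the greatest difference between the lines. On its 1 probe set it was at 7.17, 6.59 and 6.59 in HEL and at 5.46, 5.26 and 5.37 in SET2 with the IGF1R shRNA, the sponge and the control, a difference of 1.42 (SE 0.14, limma adjusted p = 0.000663). MRPL42 itself, in HEL at 7.94, 7.98 and 7.88 and in SET2 at 7.88, 7.99 and 7.74, was at 0.07 (adjusted p = 0.754) between the lines. MRPL45P2 was at -0.24 (adjusted p = 0.244) and MRPS31P5 at -0.12 (adjusted p = 0.665), beside 0.63 for MRPL45 and -0.08 for MRPS31. The antisense MRPL23-AS1 was at 0.38 (adjusted p = 0.125).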
